A study of Homo sapiens with 18 samples.

Results

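Maps of linker histone H1.2 made by xChIP-seq and by xxChIP-seq in undifferentiated HL-60/S4 cells were compared over 100-kb windows of hg19. A window was used if at least 50% of its bases were known sequence, which kept 28422 of 30376 windows on chromosomes 1 to 22 and X, and its value was the share of known bases covered by the merged peaks of each protocol. HL-60/S4 is an established human myeloid leukemia line that grows in suspension. In xChIP-seq the formaldehyde-fixed chromatin was sheared before the anti-H1.2 antibody was added. In xxChIP-seq the same antibody was bound inside fixed and permeabilized cells and fixed in place before shearing. The xxChIP protocol also had longer sonication at other settings, another amount of antibody and a further permeabilization step. The parts of these differences cannot be told apart here. Each protocol had 3 replicates, so 6 of the 18 samples of the series stood behind the comparison. The values used here were 1 merged peak list per protocol, without scores or reads. Read depth is therefore not known from them, no spread between replicates could be given and no test was made. An SD is a spread over windows, or over chromosomes where so stated, and not over replicates.

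Linker histones bind the nucleosome where the DNA enters and leaves it and help to fold chains of nucleosomes into more compact chromatin. H1.2 is one of several closely related somatic variants and is present in most cell types. An antibody added after shearing meets fragments in solution, whereas an antibody added to whole fixed nuclei meets H1.2 in place, within folded chromatin and next to other bound proteins.

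A stretch from the midpoint of the peak that filled a window of large difference is shown because it carries the base composition of the xxChIP side, poor in GC and CpG. It is 200 bp of the plus strand of hg19 in lower case with CpG in capitals, at chr12:15434325-15434524, in an intron of RERG, and was taken from the longest xxChIP peak of its window.
xxChIP, chromosome 12, RERG: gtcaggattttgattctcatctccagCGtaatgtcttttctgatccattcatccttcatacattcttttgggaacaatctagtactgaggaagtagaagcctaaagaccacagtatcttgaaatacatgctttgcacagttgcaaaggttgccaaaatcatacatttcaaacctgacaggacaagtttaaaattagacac
The stretch had a GC content of 37.5% with 1 CpG. The peak around it was 128352 bp long, and no xChIP peak overlapped the stretch.

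The H1.2 lists tended to cover different windows. The mean window was covered to 26.4% ± 22.7 (SD) by xChIP and to 20.2% ± 14.7 by xxChIP, with medians of 18.7% and 17.0%. The middle 50% of windows ran from 10.6% to 34.2% for xChIP and from 9.45% to 27.2% for xxChIP. The difference, xChIP minus xxChIP, had a mean of 6.23 percentage points, a median of 1.39 and a range from -99.0 to 100. Windows high in one list tended to be low in the other, with a Pearson r of -0.379 and a Spearman rho of -0.443 over the 28422 windows. This rested on covered bases and on long peaks. Without peaks of 20 kb or more r was -0.152, and with peak midpoints in place of covered bases it was 0.068. Neighbouring windows share peaks and base composition, so these coefficients are descriptions. Within single chromosomes r lay below 0 on 23 of 23, from -0.592 on chromosome 19 to -0.228 on chromosome 21. Of the bases covered by xChIP, 16.6% were also covered by xxChIP, against 21.4% of the bases that xChIP did not cover. In all, 468 windows were covered to at least 30% by both lists, 1917 to at least 30% by xChIP and under 5% by xxChIP, and 868 the other way round.

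**Figure D1:**
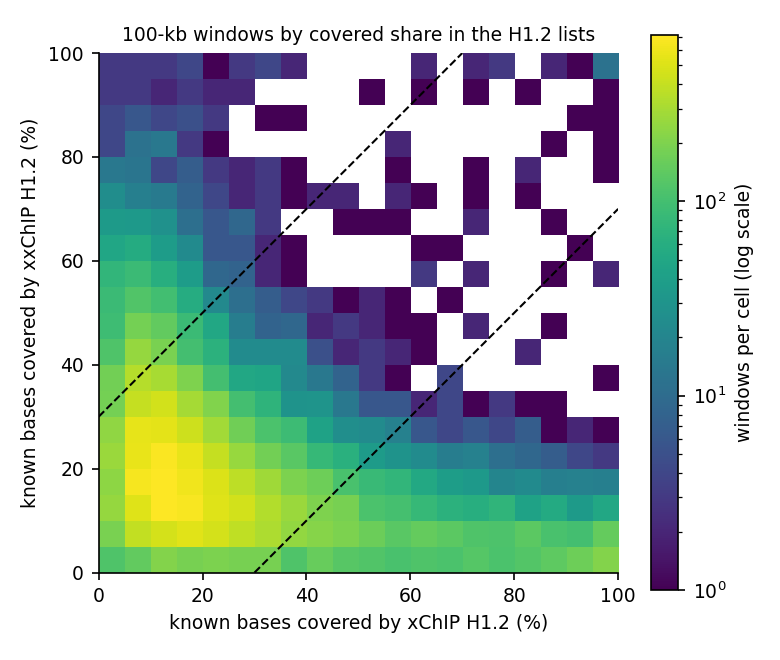
Number of 100-kb windows (colour, log scale) by the share of known bases covered by xChIP H1.2 (horizontal axis, %) and by xxChIP H1.2 (vertical axis, %), in cells of 5 percentage points, with white for no window. Dashed lines mark a difference of 30 percentage points, beyond which lie 5231 windows on the xChIP side and 2525 on the xxChIP side.

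A window was called higher in a protocol where the covered shares differed by at least 30 percentage points. By this rule 5231 windows, or 18.4%, were higher in xChIP and 2525, or 8.88%, were higher in xxChIP. The former were covered to 66.1% by xChIP and 8.08% by xxChIP on average, and the latter to 8.52% and 51.7%. The number of peaks differed less than their length. Windows higher in xChIP held 5.18 xChIP peaks with a mean length of 12791 bp and 3.74 xxChIP peaks of 2143 bp, while windows higher in xxChIP held 5.32 xxChIP peaks of 9825 bp and 3.39 xChIP peaks of 2489 bp. With peaks of 20 kb or more left out of both lists the mean shares were 16.9% and 16.6%, the mean difference was 0.233 percentage points, r was -0.152, and 1171 windows were called for xChIP and 765 for xxChIP. When peak midpoints were counted in place of covered bases, r became 0.068. The xChIP windows made up 67.4% of the calls, which became 53.7% after the mean difference was subtracted from each window and 52.7% after the mean of windows of like GC content was subtracted.

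The 10 leading windows on the xChIP side overlapped a mean of 3 protein-coding genes, from 1 to 6. The mean was 2.37 over the windows higher in xChIP and 1.19 over all windows. In 14 windows xChIP covered every known base and xxChIP none, and the 10 that came earliest in chromosome order are named here. On chromosome 2 the window from 70300001 to 70400000 held PCBP1, a protein that binds poly(C) RNA, and C2orf42. The window from 219200001 to 219300000 of the same chromosome held SLC11A1, a metal ion transporter of phagocyte vesicles, CTDSP1, a phosphatase of the RNA polymerase II tail, PNKD, CATIP and the actin-bundling protein gene VIL1. On chromosome 3 the window from 49400001 to 49500000 included RHOA, a small GTPase that controls the actin cytoskeleton, and AMT of the glycine cleavage system, and that from 138500001 to 138600000 held PIK3CB, a catalytic subunit of phosphoinositide 3-kinase. The window from 176500001 to 176600000 of chromosome 5 held ZNF346, FGFR4 and NSD1, a histone H3 methyltransferase. The other 5 lay on chromosome 7, at 5500001 to 5600000 with ACTB (beta-actin) and FBXL18, at 56100001 to 56200000 with the chaperonin subunit gene CCT6A, CHCHD2 and PSPH and within 2 Mb of an assembly gap of at least 1 Mb, at 73700001 to 73800000 with CLIP2, at 74500001 to 74600000 with GTF2IRD2B, and at 76000001 to 76100000 with ZP3, DTX2 and SSC4D. Their GC content ran from 45.1% to 55%, against a mean of 40.9% over all windows. For H1.5, the other variant mapped in the study, xChIP covered between 28.8% and 92.8% of these 10 windows and xxChIP between 0 and 6.6%.

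Of the 10 windows with the largest difference towards xxChIP, 8 overlapped no protein-coding gene. The share without such a gene was 34% over all windows, 61.9% among the windows higher in xxChIP and 9.52% among those higher in xChIP. The GC content of the 10 windows ran from 34.7% to 38.6%. The window from 15400001 to 15500000 of chromosome 12, which holds parts of RERG, a growth-inhibiting small GTPase gene, and of the receptor tyrosine phosphatase gene PTPRO, was covered to 98.6% by xxChIP and to 3.57% by xChIP. The window from 173600001 to 173700000 of chromosome 4, inside the glycosyltransferase gene GALNTL6, was covered to 90.9% and 2.27%. Gene-free windows with a like contrast lay at 51600001 to 51700000 of chromosome 17 (99.9% and 9.39%) and at 97100001 to 97200000 of chromosome 11 (94.8% and 7.45%). On chromosome 16 xxChIP covered 100% and xChIP 6.37% of the window from 32500001 to 32600000. The largest difference towards xxChIP, -99.0 percentage points, was in the window from 43600001 to 43700000 of chromosome 8 (100% and 1.03%), and another pair of windows on that chromosome had 100% with 5.33% and 100% with 11%. This leading window and those at 29600001 of chromosome 20 (99.8% and 2.04%) and 142700001 of chromosome 1 (94.4% and 4.59%) lay within 2 Mb of an assembly gap of at least 1 Mb, and in the latter pair 53.9% and 50% of the bases were known. Near the lower limit of known sequence, the 108 windows with 50% to 60% of bases known had a mean difference of 8.51 percentage points, and the 27 windows with 40% to 50%, which were not used, -1.3.

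Runs of consecutive called windows were longer on the xChIP side, where more windows were called. The 5231 xChIP windows formed 1896 runs, of which 929 were single windows, 297 had at least 5 windows and 75 at least 10. The runs of at least 5 held 48.4% of the xChIP windows. The 2525 xxChIP windows formed 1822 runs, of which 1359 were single windows and 18 had at least 5, and these 18 held 4.2% of the windows.

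The longest run higher in xChIP was 4.4 Mb on chromosome 7, from 71900001 to 76300000, with 44 windows covered to 89.5% by xChIP (35.3% to 100%) and to 4.5% by xxChIP (0 to 20.9%). It holds the genes lost in Williams-Beuren syndrome, among them ELN, which encodes elastin, LIMK1, a kinase acting on cofilin, the chromatin remodeller gene BAZ1B and the transcription factor gene GTF2I, together with HSPB1, a small heat shock protein gene, POR, which encodes cytochrome P450 reductase, and MDH2, a mitochondrial malate dehydrogenase gene. Parts of this region exist as near-identical copies, such as GTF2IRD2 and GTF2IRD2B, between which uniquely mapped reads can be scarce, and mappability was not measured. The next were 4 Mb on chromosome 11, from 64300001 to 68300000, with 141 protein-coding genes that include the tumour suppressor gene MEN1, the NF-kB subunit gene RELA, CFL1 (cofilin) and GSTP1, a glutathione transferase gene, and 4 Mb on chromosome 19, from 1300001 to 5300000, with 119 genes that include the nuclear lamina gene LMNB2, DOT1L, a histone H3 methyltransferase gene, EEF2, a translation elongation factor gene, and UHRF1, which encodes a protein needed to keep DNA methylation. These runs were covered to 76.3% and 69% by xChIP and to 5.61% and 3.75% by xxChIP. The remaining runs were 3.5 Mb on chromosome 1, from 26100001 to 29600000 (85.4% and 7.35%), where ARID1A, a subunit of the SWI/SNF remodeller, STMN1 and RCC1 lie, and 3.1 Mb on chromosome 12, from 121300001 to 124400000 (89.4% and 5.5%), with KDM2B, SETD1B and KMT5A, all of which encode enzymes that change histone methylation.

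The longest run higher in xxChIP was 0.9 Mb on chromosome 1, from 189800001 to 190700000, where 9 windows were covered to 52.9% by xxChIP and to 5.19% by xChIP. Its 1 protein-coding gene was BRINP3, which is known for expression in the nervous system. The other runs named by length, 0.8 Mb at 194700001 to 195500000 of the same chromosome (56.1% and 6.38%), 0.7 Mb at 104300001 to 105000000 of chromosome 2 (62.1% and 9.09%), 0.7 Mb at 50600001 to 51300000 of chromosome 17 (62% and 5.24%) and 0.7 Mb on chromosome 8 (89.4% and 22.7%), overlapped no protein-coding gene. In the 2 Mb on either side of the longest xChIP run, xChIP covered 39.7% and xxChIP 19.9%. The sides of the longest xxChIP run were covered to 10.8% by xChIP and to 36.1% by xxChIP. Runs were defined by this same difference, so some contrast with their sides is built in. Means over 2 Mb also do not describe the borders themselves.

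**Figure D2:**
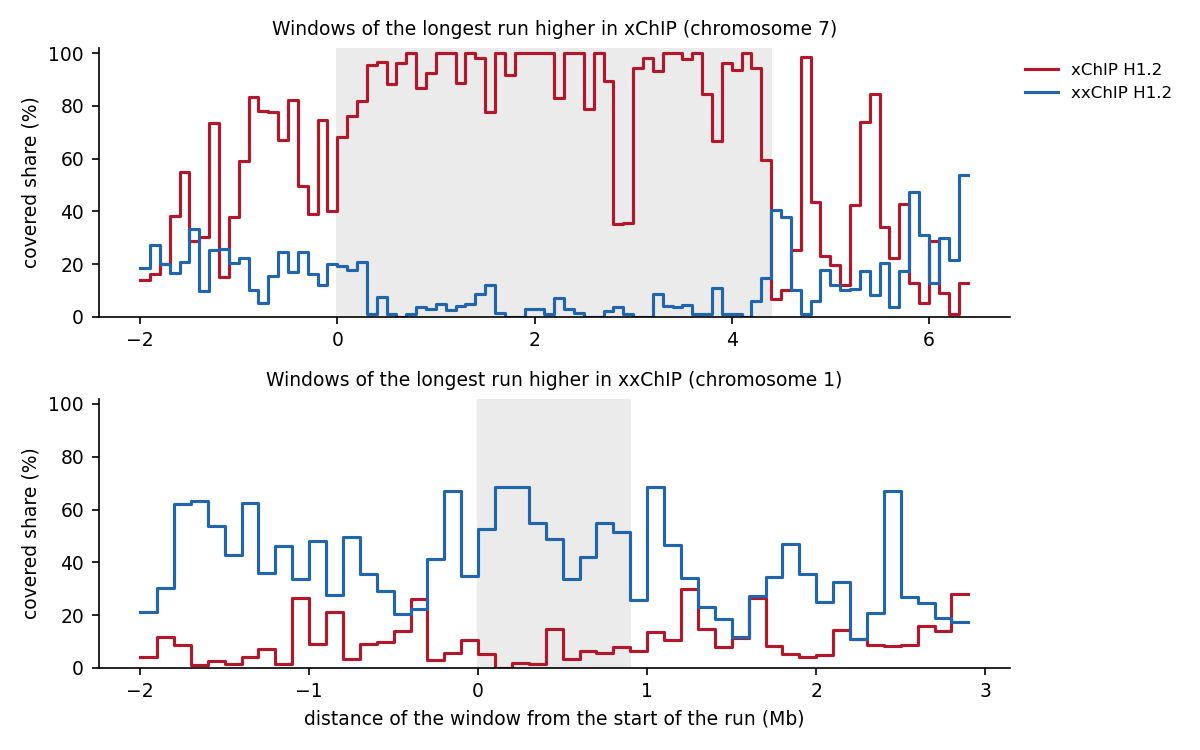
Share of known bases covered by xChIP H1.2 (red) and xxChIP H1.2 (blue) in 100-kb windows, in %, against the distance of the window from the start of the run in Mb. Grey marks the longest run higher in xChIP (4.4 Mb, chromosome 7, upper panel) and in xxChIP (0.9 Mb, chromosome 1, lower panel), with 2 Mb on either side.

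More protein-coding genes started in windows higher in xChIP than in windows higher in xxChIP. Of 20069 genes whose start lay in a window used, 9096, or 45.3%, started in a window higher in xChIP, and 537, or 2.68%, in a window higher in xxChIP. With peaks of 20 kb or more left out of both lists these shares were 9.86% and 0.757%. The median gene started in a window covered to 36.1% by xChIP and to 9.77% by xxChIP. The difference rose with the number of gene starts in a window. It averaged -3.94 percentage points in 17623 windows without a gene start (19.6% and 23.5%), 15.3 in 6167 windows with 1 (31.9% and 16.6%), 30.7 in 4041 windows with 2 to 4 (43.5% and 12.8%) and 47.8 in 591 windows with at least 5 (55.7% and 7.93%). After the mean of windows of like GC content was subtracted, these averages became -3.91, 3.33, 10.2 and 12, so the order by gene number was the same and the span smaller. With that subtraction 22.8% of the genes started in a window higher in xChIP and 6.96% in one higher in xxChIP.

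Among the 11624 protein-coding genes of at least 20 kb, 223 were covered to 100% by xChIP and to 0% by xxChIP, and 2 the other way round. Full cover of such a gene needs a peak of at least its length, or peaks that abut. Peaks of 20 kb or more numbered 5803 in the xChIP list and 2920 in the xxChIP list, with 36.1% and 17.5% of the covered bases. These gene counts therefore depend on that imbalance in long peaks. The longest of the 223 was CLIP2 (ENSG00000106665, chr7:73703737-73820265, plus strand), which encodes a protein that links organelles to microtubules. It was followed by SLC2A3 (ENSG00000059804, chr12:8071826-8171603, minus strand), a glucose transporter gene, and RBL1 (ENSG00000080839, chr20:35624752-35724400, minus strand), a relative of the retinoblastoma gene that holds back cell division. Next came ATP6V0A4, a proton pump subunit gene of kidney, ZAN, which encodes a sperm protein that binds the egg coat, BBOF1, the readthrough gene NDUFC2-KCTD14, the lysosomal peptide transporter gene ABCB9, BRI3, GTF2IRD2B, the mitochondrial topoisomerase gene TOP1MT and KIF9, a kinesin gene. Genes of kidney or sperm thus stood among the 12 beside broadly used ones. For H1.5, xChIP covered between 21.2% (KIF9) and 100% (GTF2IRD2B) of these 12 genes, and xxChIP at most 6.7% (SLC2A3).

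Of the 12 genes with the largest difference towards xxChIP, 5 lay on chromosome 19. The share of all genes of at least 20 kb on that chromosome is not given here, so this count has no background. ZNF470 (ENSG00000197016, chr19:57078837-57100279, plus strand), a zinc finger gene, and PSG5 (ENSG00000204941, chr19:43670408-43690688, minus strand), a pregnancy-specific glycoprotein gene, were covered to 100% by xxChIP and to 0% by xChIP. CCDC152 was covered to 99% and 0%, IGFL4 to 100% and 1.33%, and NXPE2 to 93.5% and 0%. Zinc finger genes also supplied ZNF729 (100% and 10%) and ZNF93 (97.7% and 15.5%). RERG (ENSG00000134533, chr12:15260717-15501609, minus strand) was the longest of the 12, at 241 kb, and was covered to 89.5% by xxChIP and to 4.48% by xChIP. POTEG (100% and 11.1%), the acyl-CoA synthetase gene ACSM2A (84.8% and 2.81%), ANKRD20A1 (93.4% and 12.2%) and SEC22B, a gene of vesicle transport (92.5% and 12.2%), have near-identical copies elsewhere in the genome, so few reads may map uniquely there. Mappability was not measured, so its part in these values was not tested. ANKRD20A1 differed from the other 11 in the direction of H1.5, with 30.8% for xChIP and 3.73% for xxChIP. In those 11 the H1.5 difference ran from -79.6 percentage points (ZNF729) to -5.29 (PSG5, 24.9% for xChIP and 30.2% for xxChIP).

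Gene length went with the balance of the lists. The median gene under 20 kb was covered to 23.8% by xChIP and to 0% by xxChIP (8466 genes), and the median gene of 20 to 100 kb to 32.5% and 8.13% (7965 genes). Genes of 100 to 500 kb had medians of 22% and 14.2% (3336 genes). In the 323 genes of at least 500 kb the order turned, with 13.3% for xChIP and 22.1% for xxChIP, and 71.2% of these genes had more xxChIP than xChIP coverage. The median GC content of the start windows fell along these classes from 46.8% to 39%.

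The 14 gene lists, grouped by role, were spread widely around the value for all genes, which was a median difference of 24.9 percentage points with 45.3% called for xChIP and 2.68% for xxChIP. Cytosolic ribosomal protein genes had the highest median, 62.3 percentage points (68% for xChIP and 4.67% for xxChIP), and 66 of 87 started in a window higher in xChIP, 1 in a window higher in xxChIP and 20 in neither. RPL6 (99.4% and 2.85%) and RPL10A (95.5% and 2.82%) led the list. The 1 called for xxChIP was RPL10L (5.08% and 50.7%), a copy of RPL10 that arose by retroposition and is used in testis. Glycolysis genes had a median of 47.1 percentage points, with 10 of 17 called for xChIP and 0 for xxChIP. PGAM1, a phosphoglycerate mutase gene, had 100% and 2.07%, GAPDH 98.7% and 1.68%, and HK1, a hexokinase gene, 86.4% and 1.48%, while LDHB (17.7% and 11%) and PFKM, the muscle phosphofructokinase gene (20% and 16.3%), lay at the low end. Core histone genes had a median of 33.5 percentage points with 31 of 60 called for xChIP, but these 60 genes started in only 11 windows.

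The lists of the myeloid and other blood lineages had medians above 0, as did all protein-coding genes, of which 45.3% were called for xChIP with a median of 24.9 percentage points. Of 18 granule protein genes, which start in 16 windows, 11 (61.1%) were called for xChIP and 0 for xxChIP, with a median difference of 35.1 percentage points. CAMP, the cathelicidin gene, had 90.5% for xChIP and 2.87% for xxChIP, and the neutrophil elastase gene ELANE and its neighbours AZU1 and PRTN3 shared a window with 82.2% and 1.64%. MPO, which encodes the peroxidase of the primary granules, had 27.7% and 8.33%, and MMP8, a neutrophil collagenase gene, 12.2% and 37.1%. Of 18 myeloid transcription factor genes, 10 (55.6%) were called for xChIP and 0 for xxChIP, with a median of 37.5, from SPI1, the gene of PU.1 (74.2% and 2.89%), to FLI1 (9.76% and 27.1%). Lymphoid genes had 9 of 18 (50%) called for xChIP and 0 for xxChIP, with a median of 30.8 percentage points, and the T cell kinase gene LCK had 100% and 1.34%. Erythroid genes, which start in 13 windows, had 8 of 17 (47.1%) called for xChIP and 0 of 17 for xxChIP. Their median was 23.1, the value of ALAS2, a gene of heme synthesis (26.1% and 3.02%), while SLC4A1, the red cell anion exchanger gene, had 82.1% and 13%. The lymphoid and erythroid values lay near those of all genes. Over gene bodies in place of start windows the median differences were 9.78 percentage points for granule protein, 7.38 for myeloid transcription factor, 9.3 for lymphoid and 2.16 for erythroid genes, all of these below the 16.3 of all genes. Gene expression was not measured here, so the part of expression in these values was not tested.

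The hepatocyte and HOX lists had medians above 0 but below that of all genes, and the neuronal, olfactory receptor, keratin and protocadherin lists had medians below 0. For comparison with the counts that follow, 45.3% of all protein-coding genes were called for xChIP and 2.68% for xxChIP. Hepatocyte genes, which start in 15 windows, had a median of 11.3 percentage points, with 3 of 18 called for xChIP and 1 for xxChIP. The latter was FGB, a fibrinogen chain gene (2.16% and 56.6%). This median turned to -2.77 after GC centring. Neuronal adhesion and synapse genes had a median of -6.72, with 1 of 24 called for xChIP (GRID1, 46.8% and 5.18%) and 2 for xxChIP, among them the lipoprotein receptor-like gene LRP1B (2.92% and 59.1%). Olfactory receptor genes, which start in 176 windows, had a median of -4.02, with 20 of 399 (5.01%) called for xChIP and 37 (9.27%) for xxChIP. Keratin and keratin-associated protein genes, which start in 34 windows, had a median of -3.99, with 15 (10.1%) and 30 (20.1%) of 149. Among these, the simple epithelial keratin genes KRT8 and KRT18 shared a window with 100% and 6.22%. Clustered protocadherin genes, which start in 8 windows, had a median of -5.99, with 5 of 53 called for xChIP and 9 for xxChIP. HOX genes, which pattern the body axis and start in 9 windows here, had a median of 18.2 with 10 of 39 called for xChIP and 0 for xxChIP, and this median turned to -22.9 after GC centring. Over gene bodies the median difference was 0 for olfactory receptor, keratin, protocadherin, HOX and core histone genes, -15.2 for neuronal, -9.65 for chromosome 19 zinc finger, 5.15 for hepatocyte, 48.3 for glycolysis and 59.3 for cytosolic ribosomal protein genes. The start-window medians of the other 12 lists kept their sign after GC centring and after subtraction of the mean difference, but GC centring changed their size. It took all genes from 24.9 to 5.93 percentage points, myeloid transcription factor genes from 37.5 to 4.16, lymphoid genes from 30.8 to 2.61, core histone genes from 33.5 to 4.73 and erythroid genes from 23.1 to 12.8. Cytosolic ribosomal protein genes went from 62.3 to 24.2, glycolysis genes from 47.1 to 21 and granule protein genes from 35.1 to 21.2. Below 0, olfactory receptor genes went from -4.02 to -0.465, neuronal genes from -6.72 to -2.03, keratin genes from -3.99 to -19.4, protocadherin genes from -5.99 to -24.4 and zinc finger genes on chromosome 19 from -9.29 to -30.4.

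**Figure D3:**
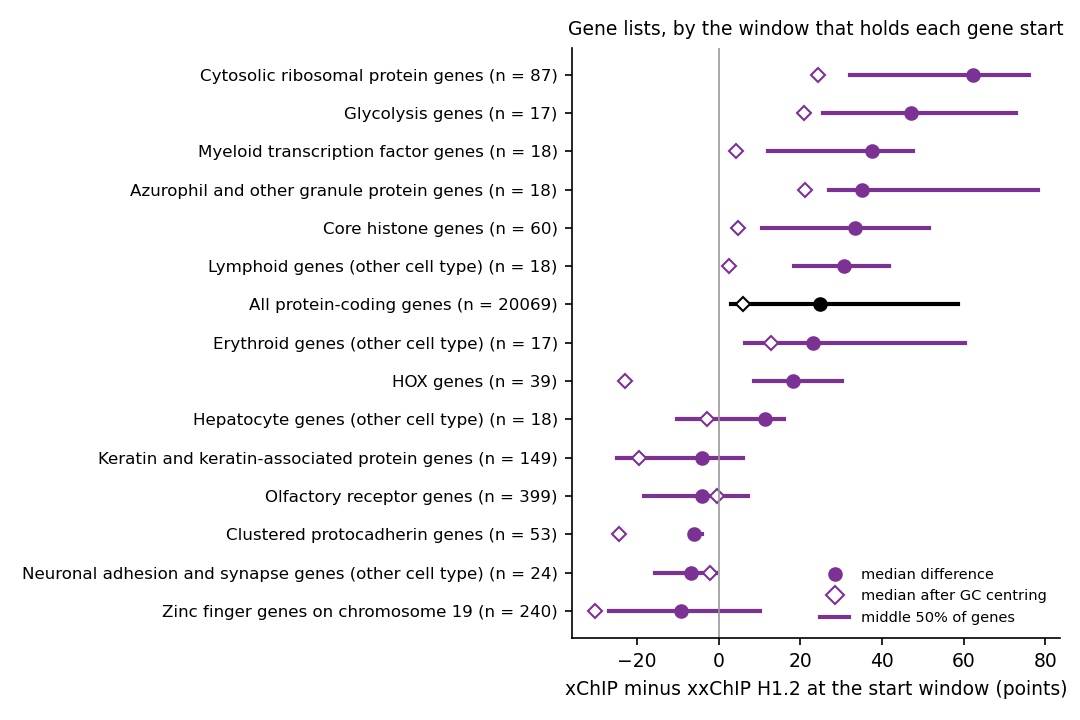
Difference in covered share, xChIP minus xxChIP H1.2, in percentage points, at the 100-kb window that holds each gene start, for 14 gene lists and all protein-coding genes (black). Filled circles are medians, lines the middle 50% of genes and open diamonds medians after subtraction of the mean of windows of like GC content; filled circles run from -9.29 for zinc finger genes on chromosome 19 to 62.3 for cytosolic ribosomal protein genes.

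The balance of the protocols varied with base composition. Windows higher in xChIP had a mean GC content of 46.2% ± 5.12 (SD) and those higher in xxChIP 37.2% ± 2.7, a difference of 9.03 percentage points, with 16.1 and 6.42 CpG per kb of known sequence. Over all windows r was 0.598 between the difference and GC content, 0.539 for the xChIP share alone and -0.443 for the xxChIP share. When the windows were divided by GC content into 10 classes of equal size, xChIP rose in each step from 11% to 51.1% and xxChIP fell in each step from 31.5% to 8.23%. The lists crossed in the class from 38.7% to 39.8% GC, where they covered 21.8% and 20.9%. In the lowest class 27.6% of windows were higher in xxChIP and 0.0703% in xChIP, and in the highest 0.0704% and 61.6%. With peaks of 20 kb or more left out xChIP still rose and xxChIP still fell in each step, from 10.6% and 23% in the lowest to 24.1% and 7.89% in the highest class, but the class from 38.7% to 39.8% GC then had 16.8% and 17.8%, and xChIP lay above xxChIP only from the next class on (17.7% and 16.6%). Sequencing libraries can differ in how they recover GC-rich fragments, and the part of this in the difference was not tested.

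**Figure D4:**
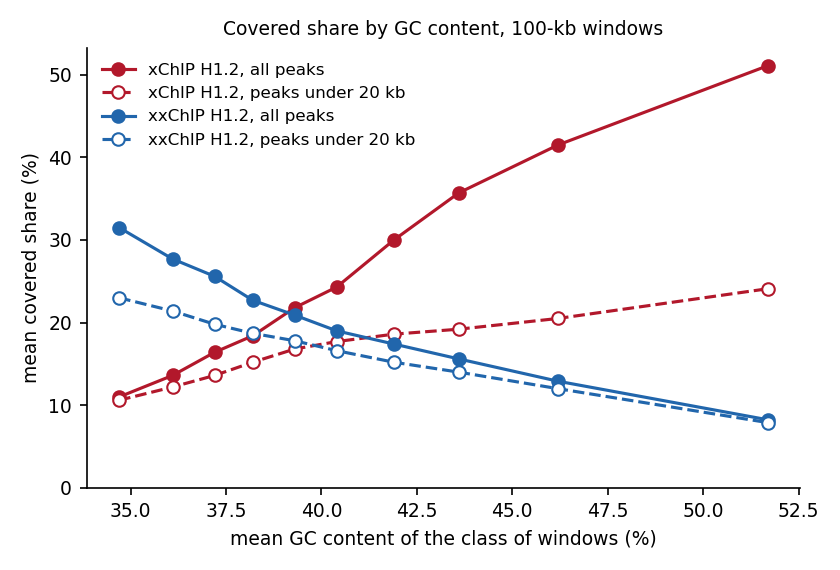
Mean share of known bases covered (vertical axis, %) by xChIP H1.2 (red) and xxChIP H1.2 (blue) in 10 classes of the 100-kb windows ordered by GC content, against the mean GC content of the class (horizontal axis, %). Solid lines are all peaks and dashed lines peaks under 20 kb; xChIP rises from 11% to 51.1% and xxChIP falls from 31.5% to 8.23%.

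Between chromosomes the mean difference ranged from -3.33 to 19.2 percentage points (SD 5.31 over the chromosome means) and was above 0 on 21 of 23. It was highest on the gene-rich chromosomes 19 (37.2% for xChIP and 18% for xxChIP), 17 (30.3% and 12.9%), 16 (27% and 13.4%) and 22 (33.4% and 19.8%). It was below 0 on chromosomes 4 (23.5% and 26.8%) and 18 (19.9% and 19.9%, a difference of -0.0603), and chromosome X had the lowest coverage in xChIP (14.7%, and 14.6% in xxChIP). Within each chromosome the difference correlated with GC content, with r from 0.527 to 0.788. After GC centring the order changed, and the mean was above 0 on 11 of 23 chromosomes, highest on chromosome 13 (8.29) and lowest on chromosome 22 (-18.5). With peaks of 20 kb or more left out it was above 0 on 12 of 23. The 801 windows within 2 Mb of a chromosome end averaged 40.6% for xChIP and 13.4% for xxChIP at a GC content of 48.9%, and their difference of 27.2 became -3.59 after GC centring.

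**Figure D5:**
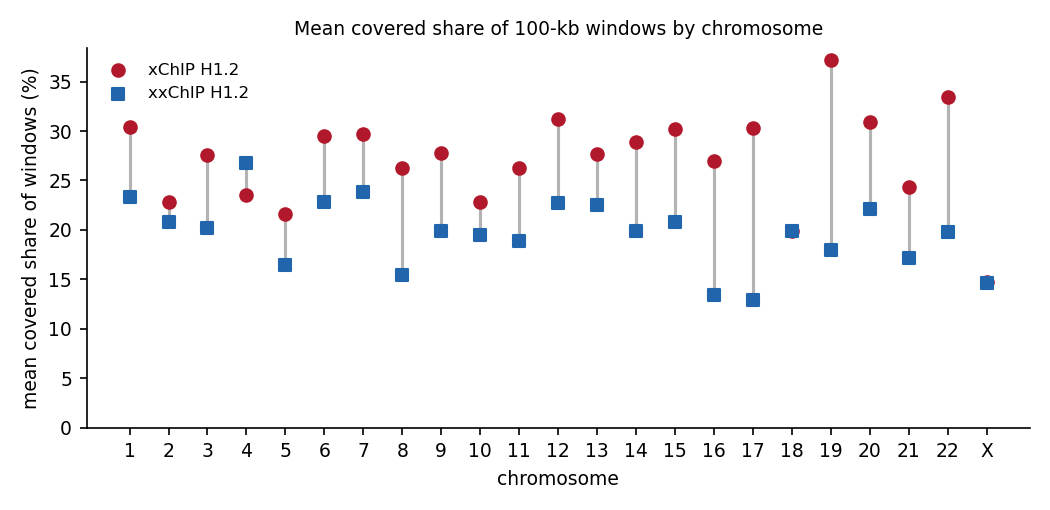
Mean share of known bases covered in the 100-kb windows of each chromosome (vertical axis, %) for xChIP H1.2 (red circles) and xxChIP H1.2 (blue squares), joined by grey lines. The xChIP mean lies above the xxChIP mean on 21 of 23 chromosomes, with the widest gap on chromosome 19 (37.2% and 18%).

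Chromosome 19 held windows and genes with large differences each way. The run from 1300001 to 5300000 described above was one of the longest higher in xChIP. On the same chromosome lay 5 of the 12 genes with the largest difference towards xxChIP, a count without a background share. Of its windows, 41.9% were higher in xChIP and 11.3% in xxChIP. Its 240 numbered zinc finger genes, many of the KRAB type that silences transposable elements, had the lowest median of the 14 lists, -9.29 percentage points. Of these genes, 26 (10.8%) were called for xChIP and 49 (20.4%) for xxChIP, against 45.3% and 2.68% of all protein-coding genes. At the ends of the list were ZNF627 (91.9% and 4.28%) and ZNF235 (2.88% and 78.3%). The 128 windows with the start of such a gene were covered to 21% ± 16 (SD) by xChIP and to 26.7% ± 18.3 by xxChIP, the 326 windows with other gene starts only to 48.9% ± 26.4 and 10.7% ± 13, and the 105 without a gene start to 20.6% ± 18.1 and 30.1% ± 21.2. After GC centring the mean difference went from -5.71 to -27.2 in the zinc finger windows (GC content 44.6%) and from -9.49 to -31.4 in the windows without a gene start (44.7%), while it went from 38.2 to -1.82 in those with other gene starts only (51%). The zinc finger windows thus had values near those of windows without a gene start on the same chromosome.

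For H1.5, mapped by the same protocols with another antibody, the shares in the windows picked by H1.2 were as follows. In the 5231 windows higher in xChIP H1.2, xChIP H1.5 covered 25% ± 15.4 (SD) and xxChIP H1.5 6.9% ± 5.86, a difference of 18.1 percentage points against 58 for H1.2. With peaks of 20 kb or more left out of all lists this H1.5 difference was 8.6. In the 2525 windows higher in xxChIP H1.2 the H1.5 shares were 12.1% ± 7.99 and 34.8% ± 15.3, a difference of -22.7 against -43.2. Over all windows the H1.5 lists covered 16.3% and 17.2%, a mean difference of -0.844. Along the 10 classes of GC content xxChIP H1.5 went from 25.4% to 8.7%, while xChIP H1.5 ran from 15.1% to 17.6%, so that the climb with GC content seen for xChIP H1.2 was smaller for H1.5. The Input samples are labelled by protocol and not by antibody, so the lists of both antibodies may share them, and the H1.5 values are set beside those of H1.2 as a description.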

How the data were processed

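H1.2 was immunoprecipitated in 3 replicates by xChIP and 3 by xxChIP. The authors sequenced paired ends, aligned reads to hg19 with Bowtie2 (up to 2 mismatches, uniquely mappable reads), called peaks per replicate with MUSIC at default settings and merged them over the 3 replicates. Each deposited list used here gives the chromosome, start and end of each peak. Whether Input entered peak calling is not given in the sources used here. Merging joins offset peaks and lengthens them.

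Shares were covered known bases of 100-kb windows of the GRCh37 primary assembly. Protein-coding genes came from GENCODE 44 lifted to GRCh37 (20090 symbols) and were placed in the window of their start. Calls needed 30 percentage points. GC centring subtracted the mean difference of 20 classes of equal size. Named were the 10 windows, 5 runs and 12 genes of at least 20 kb with the largest differences each way (ties by chromosome and position, or length) and members of the gene lists. The members and lists were chosen with earlier results of these data known. The functions were tested on simulated data. Alternatives changed window size and position, known sequence, peaks, chromosomes, threshold and centring, and a value counted as moved beyond 1.5 times. Input and reads were not used here, and some sequences, 1 gene and the positions of 2 windows and 1 run on chromosome 8 that these rules select are not reported here. Python 3.11.15, numpy 2.4.6, pandas 2.3.3 and matplotlib 3.10.9 were used.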

Additional observations from a re-analysis of the deposited data

How the results depend on the processing

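Of 76 recomputed values for 9 results, 55 lay within 1.5 times the value given, 20 moved further and 1 changed sign. The sign change was r, which became 0.068 with peak midpoints in place of covered bases. Without peaks of 20 kb or more the mean difference was 0.233 percentage points, r -0.152, windows higher in xChIP 4.12% and in xxChIP 2.69%, genes 9.86% and 0.757%, chromosomes with a mean above 0 numbered 12, and the H1.5 difference was 8.6 percentage points. Windows of 250 kb gave 5.61% of windows and 1.32% of genes higher in xxChIP. A threshold of 20 percentage points gave 16.8% and 5.8% there, and 50 gave 2.08% and 0.379%, with 10.5% of windows higher in xChIP. Subtracting the mean difference gave 4.38% of genes higher in xxChIP. Subtracting the mean of like GC gave 11.1% of windows and 22.8% of genes higher in xChIP, 6.96% of genes higher in xxChIP and a GC difference of 1.18 percentage points, which the subtraction itself lowers. The cause of the other changes was not tested. Windows of 50 kb, shifted windows, 90% known sequence, chromosome X left out and, chosen after seeing the data, windows within 2 Mb of a gap of 1 Mb or more left out moved none of the results recomputed under them past 1.5 times. The chromosome count and the H1.5 difference were not recomputed for other windows, known sequence or chromosome X. No paired analysis was possible because each list merges its replicates, and for the same reason no replicate could be left out. Without reads, depth could not be assessed, and mappability was not measured.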

Other observations

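Some windows were covered by both H1.2 lists and some by neither. Of the 468 windows covered to at least 30% by both xChIP and xxChIP H1.2, 110 lay within 2 Mb of an assembly gap of at least 1 Mb, many of which are at centromeres. This was 13.5% of the 817 windows near such gaps, against 1.3% of the 27605 windows elsewhere. The windows near gaps averaged 32% for xChIP and 29.4% for xxChIP. Sequence beside centromeres is known to be rich in duplications, and how much of it can be mapped uniquely was not measured.

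At the other end, 34 windows had no base in either H1.2 list. Of these, 20 lay on chromosome X, all between 145200001 and 148800000, and 10 on chromosome 8. Of the 36 windows in that stretch of chromosome X, 16 were also empty in both H1.5 lists. The remaining windows of the stretch reached 73.1% for xChIP and 2.77% for xxChIP, and the mean of the stretch was 10.1% and 0.324%. Copy number was not measured here.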
